A study of Rattus norvegicus with 8 samples.

Results

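The aryl hydrocarbon receptor (AhR) genes described here are 8 rat genes chosen by name for their role in the pathway: Ahr, its partner Arnt, the repressor Ahrr, the feedback gene Tiparp, and the target enzymes Cyp1a1, Cyp1a2, Cyp1b1 and Aldh3a1. Of these 8 genes, 7 had a probe on the array, and 5 were bright enough to enter the test among 24193 genes in all. Ahrr had no matched probe, and its expression was not analysed here. Liver RNA came from male Wistar/ST rats in 2 groups, each of 4 samples on 4 arrays. The Eucommia rats drank an extract of Eucommia ulmoides leaves for 5 weeks while on a high-fat diet with high-fructose water. The Control rats had the same high-fat diet and high-fructose water but no leaf extract, so every animal carried the dietary load and no group on plain chow was analysed here. The labels number the samples, and nothing else says that the arrays of a group came from separate rats. The p-values therefore describe the spread among these 8 samples, which may be technical.

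AhR is a transcription factor that waits in the cytoplasm bound to the heat shock protein Hsp90 and other chaperones. When a flat aromatic ligand binds, such as a dioxin, a plant indole or flavonoid, or a breakdown product of tryptophan, AhR moves to the nucleus and pairs with Arnt. The pair binds a short DNA motif called the xenobiotic response element and switches on Cyp1a1, Cyp1a2 and Cyp1b1, whose cytochrome P450 enzymes oxidise the ligand. In rat liver Cyp1a1 is nearly silent until a ligand arrives and is then one of the most strongly induced genes known, while Cyp1a2 is made all the time by hepatocytes near the central vein and is induced further. Ahrr and Tiparp are themselves induced by AhR and dampen it.

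Values are log2 signals relative to the array's 75th percentile, so 0 is the signal at that percentile and each step of 1 is a doubling. A probe's signal depends on its sequence as well as on the RNA, so values are compared between arrays and not between genes. The scanner software marks each spot as well above background or not. On the Eucommia arrays 69.3 to 71.9% of spots were well above background, against 58.9 to 61.5% on the Control arrays. The lowest signal so marked was 5.69 to 6.05 raw units on Eucommia arrays and 11.2 to 13.7 on Control arrays. The Eucommia arrays were all on 1 slide and the Control arrays all on another, scanned separately, and the effects of slide and treatment cannot be told apart. The tissue label was checked against hepatocyte markers: Alb, the albumin gene, was well above background on all 8 arrays and averaged 9.79 ± 0.09 in Eucommia samples and 9.96 ± 0.11 in Control samples (SD, n = 4 each).

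None of the 5 AhR genes tested passed the adjusted p threshold of 0.05 in limma's test, in either direction. Over all genes the same test called 24.7% (18.6% higher and 6.12% lower in Eucommia). The median log2 fold change of the 5 genes was 0.11, beside 0.02 over all genes. Of the 5 genes, Tiparp had groups that did not overlap, which was the case for 28.6% of all genes tested (8.57% with Eucommia below Control). The split of calls depended on the scaling: 4504 genes were higher and 1481 lower, against 4058 and 2796 with quantile normalization, 3860 and 2582 with normexp followed by quantile normalization, and 3706 and 7635 with median centring. Calls in the higher direction were more frequent among dim genes. Among genes whose mean signal was below 0, 27.0% were called higher in Eucommia, against 3.75% of genes at 0 or above, and the share called lower was 6.26% and 5.89%.

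**Figure D1:**
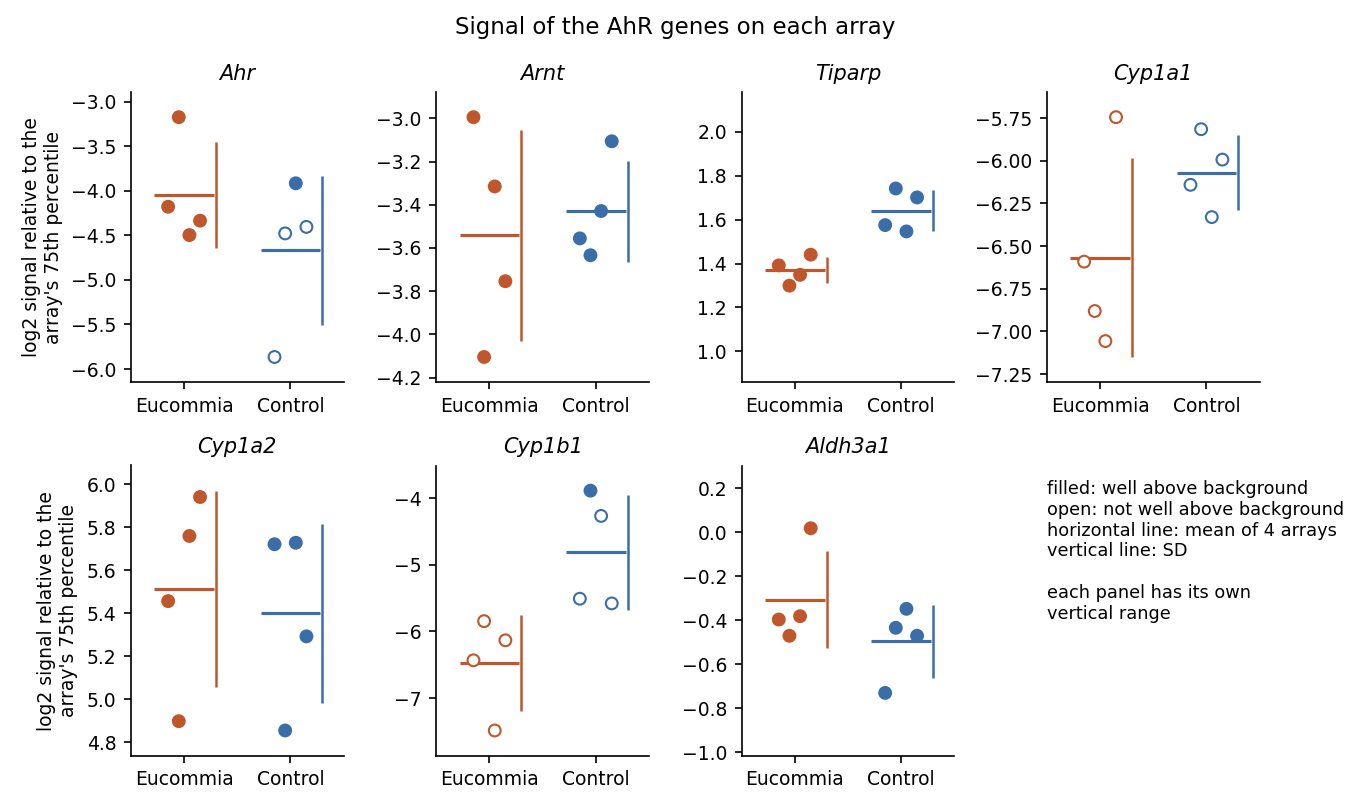
Log2 signal of the 7 AhR genes with a probe, 1 point per array, in Eucommia (left) and Control (right). Lines are the mean and SD of 4 arrays, and open points are not well above background. No Cyp1a1 point is filled. The groups stand apart for Tiparp and for Cyp1b1, of which only 1 point, Control replicate 2, is filled.

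The AhR-Arnt pair recognises the core GCGTG, and the longer form TNGCGTG contains that core. Both were searched on either strand in the 250 bases before the gene start, from RefSeq promoters of assembly GRCr8, which held 6 of the 8 genes (no entry for Cyp1a1 and Aldh3a1). The core was found for Arnt (1), Ahrr (3), Tiparp (1) and Cyp1b1 (2), and not for Ahr or Cyp1a2, so 4 of 6 held it, beside 25.9% of 33469 promoters. The longer form was found for Ahrr and Cyp1b1, beside 4.09% of promoters. The letters G and C made up 57.6% of the window of Arnt, 62% of Ahrr, 74.8% of Tiparp and 59.2% of Cyp1b1. For Ahr and Cyp1a2, without the core, they made up 75.2% and 44%. These shares of promoters were not matched for G and C content, so they do not measure enrichment. A match describes letters and is not a binding site, and no match says only that these letters are not in the window. The sequences below show the core in capitals (CACGC where it lies on the opposite strand). They are those of Tiparp and Cyp1b1, whose groups stood apart, and of the constitutive enzyme Cyp1a2. For Cyp1b1 most signals were not well above background, and the negative-control spots were also dimmer on the Eucommia arrays.
Tiparp, chr2:152063519-152063768, + strand: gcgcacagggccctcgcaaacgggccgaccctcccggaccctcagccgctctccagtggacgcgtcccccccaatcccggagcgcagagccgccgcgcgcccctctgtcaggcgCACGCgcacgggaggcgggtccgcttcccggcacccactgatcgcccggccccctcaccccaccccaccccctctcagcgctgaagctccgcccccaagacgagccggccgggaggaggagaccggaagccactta
Cyp1a2, chr8:66978150-66978399, - strand: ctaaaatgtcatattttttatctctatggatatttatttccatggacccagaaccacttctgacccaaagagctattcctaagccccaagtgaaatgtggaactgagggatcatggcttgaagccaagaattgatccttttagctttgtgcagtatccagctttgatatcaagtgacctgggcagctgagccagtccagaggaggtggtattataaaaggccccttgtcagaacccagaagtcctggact
Cyp1b1, chr6:21094315-21094564, + strand: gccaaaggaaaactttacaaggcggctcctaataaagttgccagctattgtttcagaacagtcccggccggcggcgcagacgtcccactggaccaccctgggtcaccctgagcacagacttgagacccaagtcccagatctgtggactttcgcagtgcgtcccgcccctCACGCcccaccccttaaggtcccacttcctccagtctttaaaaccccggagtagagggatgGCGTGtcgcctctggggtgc
In Tiparp the core lies at -136 to -132 from the gene start on the opposite strand, and in Cyp1b1 at -81 to -77 on the opposite strand and at -20 to -16 on the strand of the gene.

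Ahr, the receptor itself, was at the edge of detection. Its log2 signals were -4.18, -3.17, -4.50 and -4.33 in Eucommia samples, against -5.86, -4.48, -3.91 and -4.40 in Control samples. It was well above background on 4 of 4 Eucommia arrays and on 1 of 4 Control arrays, where the limit was higher. The groups overlapped: Control replicate 3 was above 3 of the Eucommia arrays, and Control replicate 1 was the lowest of all. The log2 fold change was 0.62 (SE 0.43, 95% interval -0.37 to 1.61, limma adjusted p = 0.349). It was 0.22 without Control replicate 1, 0.33 without Eucommia replicate 2, and 0.07 with normexp followed by quantile normalization. The Eucommia arrays alone brought Ahr into the test. Its spread within groups was wide for its signal range, at percentile 92.0 of 3482 genes with a mean signal below -4.

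Arnt, the partner that AhR needs to bind DNA and that hypoxia signalling also uses, was well above background on all 8 arrays. Its log2 signals were -2.99, -4.10, -3.31 and -3.75 in Eucommia samples, against -3.56, -3.63, -3.43 and -3.11 in Control samples. The Eucommia arrays spanned the whole Control range. The log2 fold change was -0.11 (SE 0.24, 95% interval -0.65 to 0.43, limma adjusted p = 0.778), and without Eucommia replicate 2 it was 0.08. The balance of receptor to partner was compared within each array, where scaling between arrays cancels. Ahr minus Arnt averaged -0.50 ± 1.0 in Eucommia samples and -1.23 ± 0.79 in Control samples (SD, n = 4 each). The difference of 0.73 gave p = 0.343 in an exact 2-sided permutation test over 70 splits, in which the smallest possible p is 0.0286. It was 0.25 without Eucommia replicate 2 and 0.37 without Control replicate 1, and on 3 of 4 Control arrays it rests on an Ahr signal not well above background.

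Tiparp encodes an enzyme that attaches ADP-ribose to AhR and marks it for loss, and AhR ligands induce it quickly. Its brightest probe read 1.39, 1.30, 1.35 and 1.44 in Eucommia samples, against 1.57, 1.74, 1.55 and 1.70 in Control samples. Every Eucommia value was below every Control value. In raw units the same spots read 559 to 628 on Eucommia arrays and 687 to 843 on Control arrays. The log2 fold change was -0.27 (SE 0.09, 95% interval -0.47 to -0.07), with an unadjusted p of 0.0124 and a limma adjusted p of 0.0502, just beyond the threshold. All 19 other settings gave a negative value, and Tiparp passed in 5 of them, with adjusted p from 0.00248 to 0.294. The 250 bases before its start, shown above, hold the core once.

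The Tiparp difference was small in size, 0.83-fold, and it stood out because the arrays of a group lay close together. The spread within groups was 0.08, at percentile 8.86 of 4153 genes with a mean signal of 0 to 2. Tiparp had 2 further probes, both dim. The next brightest read -4.01, -4.49, -4.45 and -5.17 in Eucommia samples and -4.03, -3.88, -4.35 and -4.16 in Control samples. Its groups overlapped, with a difference of -0.43 (limma adjusted p = 0.223 when each probe is tested on its own). The dimmest probe differed by -0.09 (adjusted p = 0.875) and was well above background on 3 Eucommia arrays and 1 Control array.

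Cyp1a1 is the classical readout of AhR activation, and the array carried its probe in 10 spots. None of the 80 Cyp1a1 spots on the 8 arrays was marked well above background, and 2 were outlier spots. The median raw signal of the 10 spots was 2.36, 1.58, 1.59 and 3.65 on the Eucommia arrays, against 4.33, 4.36, 2.84 and 3.94 on the Control arrays. The spots ran from 1.14 to 6.13 raw units on Eucommia arrays and from 2.27 to 6.59 on Control arrays. Negative-control spots, which match no rat RNA, had array medians of 1.29 to 1.44 on Eucommia arrays and 2.48 to 3.0 on Control arrays. With both groups not well above background, no fold is given.

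The 10 spots still allow a look at how far each array's Cyp1a1 signal sat above its own blank spots. On the Eucommia arrays 8, 4, 3 and 10 of the 10 spots exceeded the 95th percentile of that array's negative controls, against 7, 7, 1 and 6 on the Control arrays. Eucommia replicate 4 was the array on which all 10 spots did so. Its highest Cyp1a1 spot, at 6.13 raw units, was above the lowest signal marked well above background on that array, 6.05, without carrying the mark. The counts overlapped between the groups, and spots of an array share their RNA and are not replicates.

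**Figure D2:**
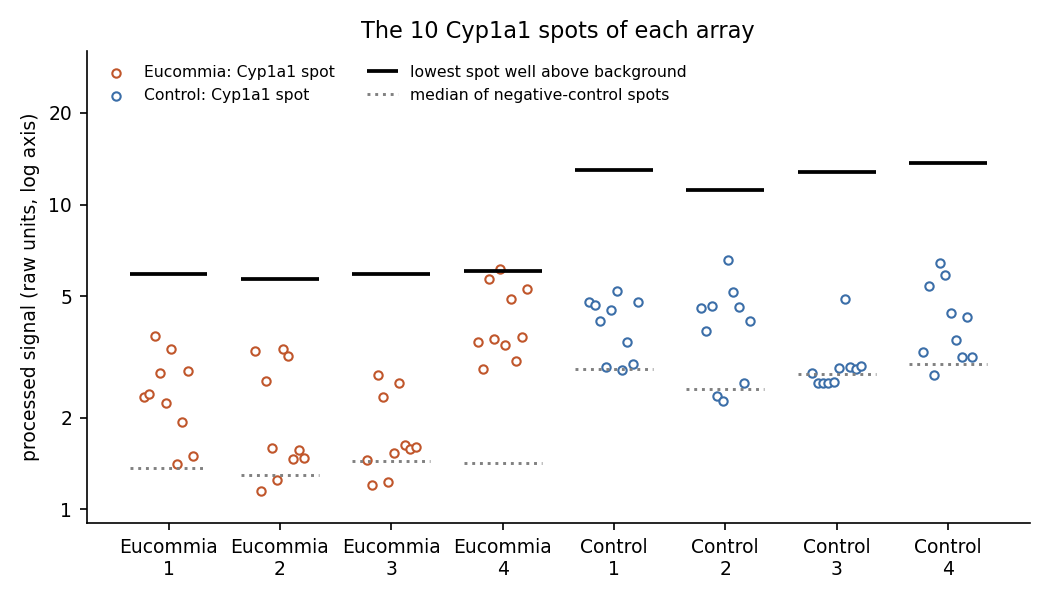
Raw processed signal (log axis) of the 10 Cyp1a1 spots on each Eucommia array (left) and Control array (right). Black bars mark the lowest signal well above background and dotted bars the negative-control median of that array. Only on Eucommia replicate 4 did a spot reach the black bar, and both kinds of bar are higher on the Control arrays.

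Cyp1a2 lies next to Cyp1a1 on the chromosome, with 0 genes between them in the RefSeq table of assembly GRCr8. It metabolises caffeine and aromatic amines. Its brighter probe read 5.46, 4.90, 5.76 and 5.94 in Eucommia samples, against 5.72, 4.85, 5.73 and 5.29 in Control samples. The groups overlapped throughout, and replicate 2 was the lowest array of each group. The log2 fold change was 0.11 (SE 0.27, 95% interval -0.49 to 0.72, limma adjusted p = 0.799). It was -0.07 without Control replicate 2, -0.03 without Eucommia replicate 4, and -0.14 with median centring, so its sign depended on these choices. Its promoter window, shown above, does not hold the core.

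The second Cyp1a2 probe read 3.45, 3.13, 3.83 and 3.64 in Eucommia samples, against 3.59, 2.61, 3.69 and 3.52 in Control samples. It differed by 0.16 between the groups (limma adjusted p = 0.694 when each probe is tested on its own). The probes ordered the arrays alike, with a Pearson correlation of 0.877 over 8 arrays after each group's mean was subtracted. Both spots of an array share its RNA and scan. The array with the most signal exceeded the array with the least by 2.12-fold on the brighter probe and 2.32-fold on the second. The spread within groups of the brighter probe, 0.44, was at percentile 97.8 of 1935 genes with a mean signal of 4 and above. This spread was larger than the difference between the group means.

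**Figure D3:**
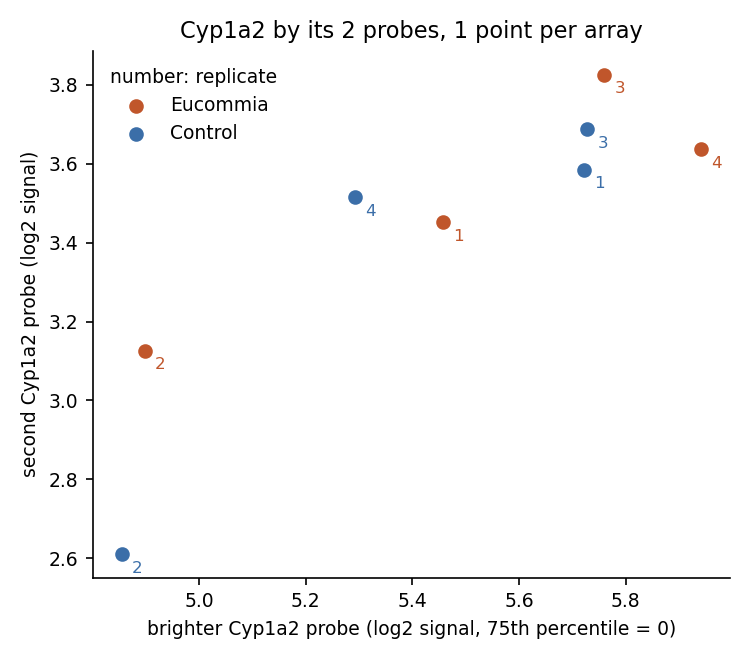
Log2 signal of the brighter Cyp1a2 probe (horizontal) and of the second probe (vertical), 1 point per array, numbered by replicate and coloured by group (Eucommia, Control). Replicate 2 of each group sits at the lower left at 4.90 (Eucommia) and 4.85 (Control) on the horizontal axis, and the groups mix elsewhere.

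The genes whose pattern was most like that of Cyp1a2 were sought among 9955 named genes by the Pearson correlation over 8 arrays, with group means subtracted. The closest were Car5a, a mitochondrial carbonic anhydrase, at 0.984, Acox2, a peroxisomal oxidase of bile acid precursors, at 0.971, and Slc16a7, a monocarboxylate transporter, at 0.966. In all, 25 genes were above 0.9. Among 14 pericentral hepatocyte genes, those made near the central vein as Cyp1a2 is, 12 correlated positively and the median was 0.24, beside -0.05 over all other genes tested. Of all other genes tested, 11131 of 24192 correlated positively. Among genes with a mean signal of 0 and above, the median was 0.45 for 9 pericentral genes and 0.08 for all others. In that range 8 of 9 pericentral genes correlated positively, beside 5042 of 8750 others.

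Picked after their values were seen, Oat (ornithine aminotransferase) and Cyp2e1 (the ethanol-oxidising P450) correlated with Cyp1a2 at 0.945 and 0.914. Oat read 6.44, 6.16, 6.63 and 6.90 in Eucommia samples, against 6.85, 6.03, 6.75 and 6.17 in Control samples. Cyp2e1 read 8.46, 8.15, 8.71 and 8.86 in Eucommia samples, against 8.63, 8.41, 8.89 and 8.69 in Control samples. Both were lowest on replicate 2 of each group, as Cyp1a2 was. Other genes of the list did not follow Cyp1a2: Glul correlated at -0.10, Lgr5 at -0.27 and Axin2 at 0.07. Among the Eucommia arrays, Glul and Lgr5 were lowest on replicate 3 and Axin2 on replicate 4. In whole liver, fewer cells that make a transcript and less of it per cell cannot be told apart.

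Cyp1b1, a P450 of oestrogen and polycyclic hydrocarbon oxidation that liver makes mostly outside hepatocytes, was not well above background on any Eucommia array and was so on 1 Control array, replicate 2. Its log2 signals were -6.43, -5.85, -7.49 and -6.13 in Eucommia samples, against -5.51, -3.89, -4.27 and -5.58 in Control samples. Every Eucommia value was below every Control value. It did not enter the test, and the share of genes without overlap given above covers only genes tested. The measured means were -6.48 in Eucommia samples and -4.81 in Control samples. No fold is given, since 3 of 4 Control arrays were also not well above background and the detection limit differs between the slides. The negative-control medians, 1.29 to 1.44 raw units on Eucommia arrays and 2.48 to 3.0 on Control arrays, differed in the same direction. The part of that difference in the Cyp1b1 values was not tested.

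Aldh3a1, an aldehyde dehydrogenase that AhR ligands induce in rat liver, was well above background on all 8 arrays. Its log2 signals were -0.40, -0.47, -0.38 and 0.02 in Eucommia samples, against -0.73, -0.43, -0.35 and -0.47 in Control samples. Eucommia replicate 4 was the highest and Control replicate 1 the lowest, and the others overlapped. The log2 fold change was 0.19 (SE 0.14, 95% interval -0.12 to 0.50, limma adjusted p = 0.364). It was 0.08 without Eucommia replicate 4, 0.11 without Control replicate 1, 0.04 with normexp followed by quantile normalization, and -0.07 with median centring.

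The rest of the pathway was described with gene lists. Of 22 other AhR-responsive genes, 17 were tested, 4 were called higher in Eucommia and 0 lower. The median log2 fold change of the genes tested was -0.02. Slc7a5, among the called genes, entered the test through the Eucommia arrays alone, so its call is no independent support. With detection on all 8 arrays, where Slc7a5 was not tested, the count called higher was 3. All 4 called genes were among the 5 with a mean signal below 0, a range in which 27.0% of all genes were called higher. Of the 12 at 0 or above, 0 were called, and their median was -0.19. Without Eucommia replicate 1 the count was 2, and without Eucommia replicate 2 or replicate 3 it was 1. The part of slide differences in these calls cannot be told apart from that of the extract.

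Cyp2s1, a P450 induced by dioxin, read -2.37, -2.14, -2.94 and -2.03 in Eucommia samples, against -3.79, -3.48, -3.53 and -3.58 in Control samples. It rose by 1.23 on the log2 scale (SE 0.19, limma adjusted p = 0.00142) with no overlap, and passed in 19 of 19 other settings. Among these settings, the series table repeats the main fit, and the probe settings left the fold change of Cyp2s1 unchanged. Nqo1, a quinone reductase shared by AhR and Nrf2, read -1.65, -1.64, -1.68 and -2.83 in Eucommia samples, against -2.89, -3.03, -3.16 and -3.01 in Control samples. It rose by 1.07 (SE 0.26, adjusted p = 0.0153), and Eucommia replicate 4 lay only just above the Control arrays. It did not pass without Eucommia replicate 1, 2 or 3 (0.97, 0.97 and 0.98). With normexp followed by quantile normalization, Cyp2s1 was at 0.40 and Nqo1 at 0.38, which did not pass.

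Ugt1a6, a glucuronidation enzyme, read -0.69, -0.29, -0.58 and -0.73 in Eucommia samples, against -1.24, -1.05, -1.61 and -0.96 in Control samples. It rose by 0.64 (SE 0.16, limma adjusted p = 0.0187), and did not pass without Eucommia replicate 2 (0.55) or replicate 3 (0.64). Ugt1a genes share exons, so the probe may read several of them. Slc7a5, an amino acid transporter, was well above background on 4 Eucommia arrays and 1 Control array, so the Eucommia arrays alone brought it into the test. It was called with a fitted log2 fold change of 0.72 and overlapping groups, and passed in 7 of 18 other settings. Among the bright genes that did not pass, Gsta2, a glutathione transferase with a known AhR site in rat, had a log2 fold change of -0.58 (SE 0.20, limma adjusted p = 0.0639). It passed without Eucommia replicate 4 (-0.70) and without Control replicate 1 (-0.71). Without Control replicate 3 the brightest probe was picked anew, and another Gsta2 probe gave -0.25. With the mean over probes Gsta2 was at -0.43 (limma adjusted p = 0.138). That of Pck1, an enzyme of gluconeogenesis, was -0.17.

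**Figure D4:**
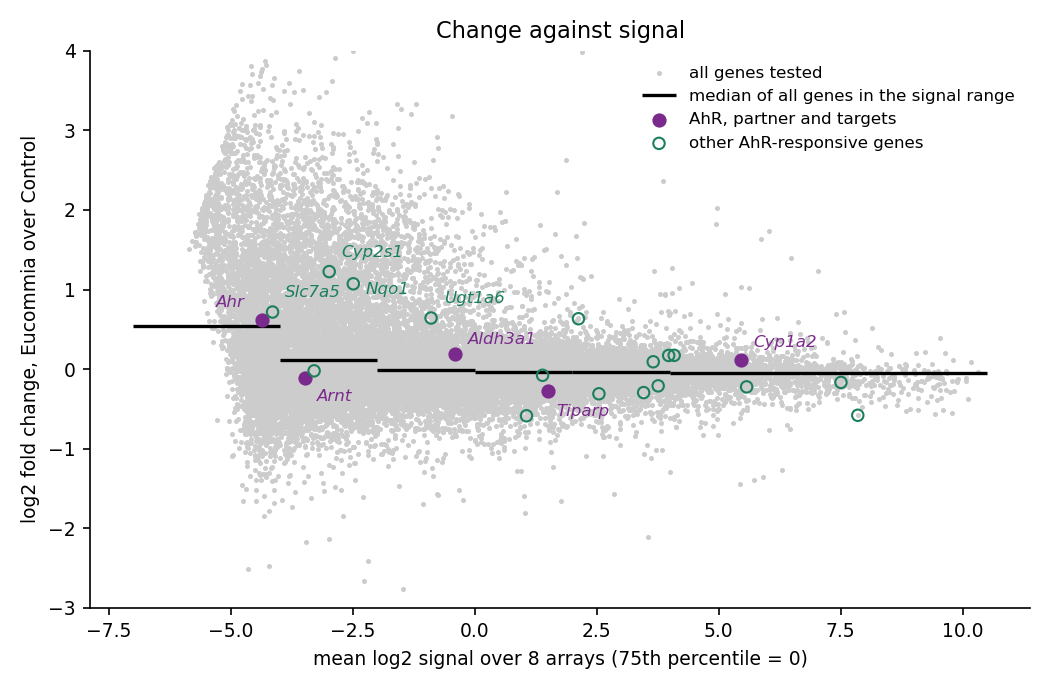
Log2 fold change (Eucommia over Control) against mean log2 signal for all genes tested (grey), with black bars at the median of each signal range, AhR genes (purple) and other AhR-responsive genes (green rings). The median is 0.55 below a signal of -4 and -0.05 at 4 and above, the 4 called ring genes lie left of 0, and 14 genes lie outside the vertical range.

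AhR is held and activated by chaperones and coactivators, and 10 of 17 such genes were tested, with 0 called and a median of 0.02. The chaperone Hsp90aa1 had a log2 fold change of -0.51 (SE 0.19, limma adjusted p = 0.0864) and groups that did not overlap, and -0.32 without Eucommia replicate 4. Hsp90ab1 had -0.24 and Rbx1, a subunit of a ubiquitin ligase complex, -0.06. Hsp90ab1 passed in 2 of 19 other settings, the mean over probes (-0.36, limma adjusted p = 0.0249) and median centring (-0.50). Genes that form or break down endogenous ligands gave 0 calls of 11 tested and a median of -0.19. Tdo2, which starts tryptophan breakdown, had -0.36 (SE 0.17, adjusted p = 0.170), with -0.22 without Eucommia replicate 2 and -0.50, which passed, without Eucommia replicate 4. Aox1 had -0.19 and Kynu 0.03. Electron donors and heme supply, which every P450 needs, gave 0 calls of 13 and a median of 0.06, with Alas1 at 0.19, Alad at -0.20 and Pgrmc1 at -0.10. Over all genes 18.6% were called higher and 6.12% lower.

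Among 14 pericentral genes tested, Lgr5 was the 1 gene called, and the median was 0.10. Lgr5, a Wnt pathway receptor of pericentral hepatocytes, was well above background on all Eucommia arrays and on 0 Control arrays. Under the main scaling its Eucommia mean was 3.50-fold the detection limit of the Control arrays. With normexp followed by quantile normalization its fitted log2 fold change was 0.59. Lgr5 entered the test through the Eucommia arrays alone, so its call is no independent support. Its signals were -2.25, -2.28, -3.23 and -2.23 in Eucommia samples, against -5.64, -4.86, -4.48 and -4.81 in Control samples. Cyp2e1, Oat and Gstm1, the brightest of the list, had log2 fold changes of -0.11, 0.08 and -0.06, and none passed.

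**Figure D5:**
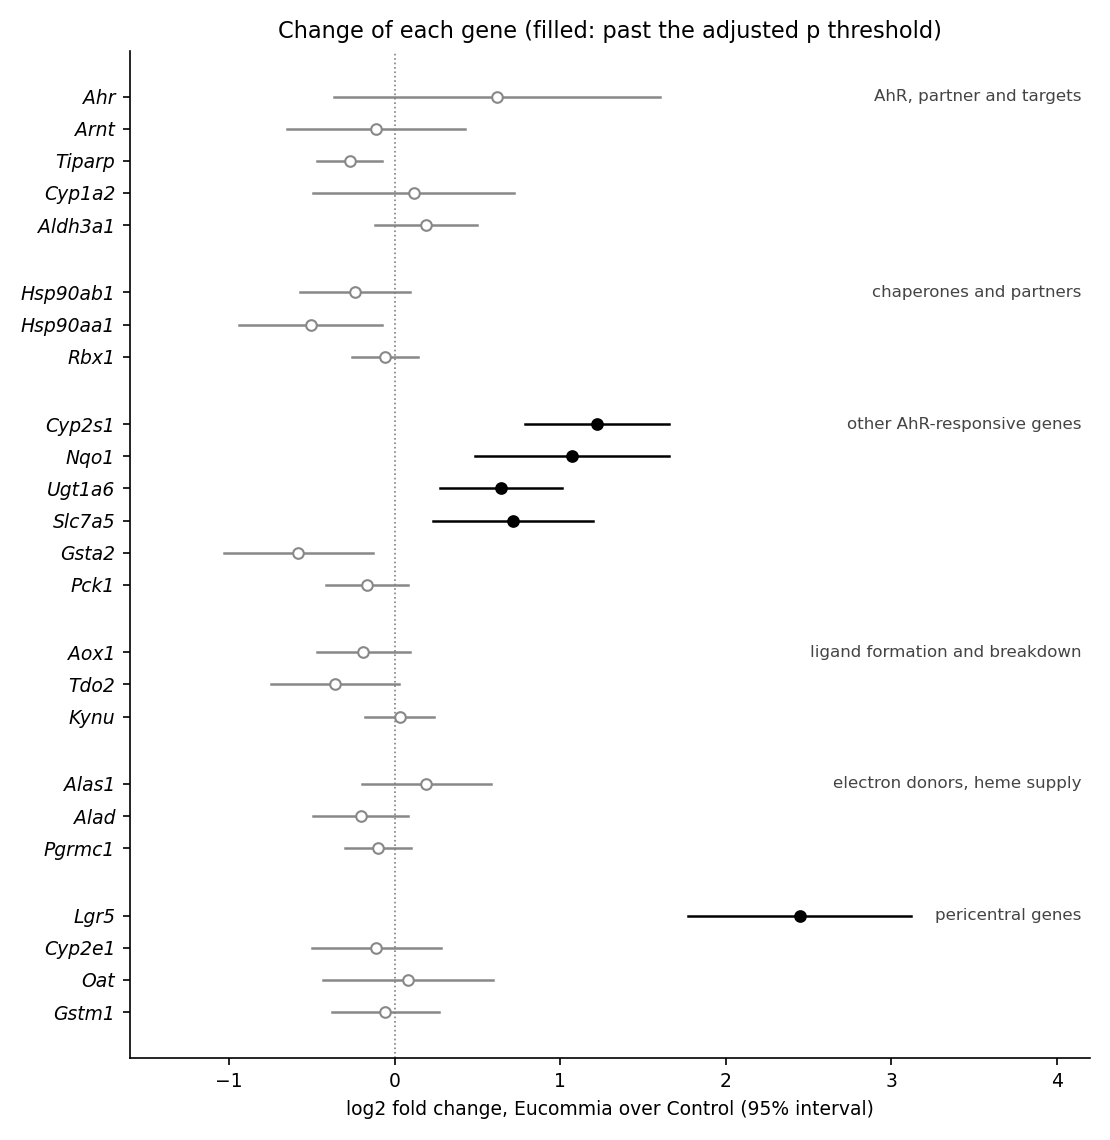
Log2 fold change (Eucommia over Control) with its 95% interval for the 5 AhR genes tested and the genes named from the 5 lists, filled where the adjusted p passed. Of the AhR genes only Tiparp has an interval that leaves out 0 (-0.47 to -0.07), without passing the adjusted threshold. The Ahr, Slc7a5 and Lgr5 points are fitted values of genes that the Eucommia arrays alone brought into the test.

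Marker lists of the cells in liver were set beside these values. Of 10 hepatocyte markers 0 were called higher and 1 lower, and the summed level of the list ran from 12.1 to 12.3 in Eucommia samples and from 12.3 to 12.5 in Control samples. Of 9 macrophage markers 0 were called, all 9 had negative fold changes, and the summed level ran from 6.32 to 6.98 in Eucommia samples and from 6.73 to 7.43 in Control samples. Of 8 stellate cell and fibroblast markers, cells in which Cyp1b1 is known to be made, 1 was called higher, with summed levels of 5.19 to 5.50 in Eucommia samples and 4.72 to 5.36 in Control samples. Of 6 pancreatic acinar markers tested, 3 were called higher, with summed levels of 1.30 to 1.85 in Eucommia samples and 0.46 to 0.67 in Control samples, and the other 4 were too dim to be tested. Of 6 lymphocyte markers tested, 2 were called higher, and of 5 intestinal and lung epithelium markers 2. Endothelial markers gave 1 higher and 1 lower of 7, and cholangiocyte markers 1 higher and 1 lower of 5. The epithelium calls (Sftpc and Sftpb) and the higher cholangiocyte call (Cftr) were well above background on 4 Eucommia and 0 Control arrays. The Eucommia arrays alone brought these genes into the test, so their calls are no independent support. Over all genes 18.6% were called higher and 6.12% lower, and below a mean signal of 0 the share called higher was 27.0%. The part of cell content in the AhR genes' values was not tested.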

How the data were processed

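Liver RNA on 8 Agilent 1-colour (Cy3) arrays was compared, 4 Eucommia and 4 Control, from 500 ng of total RNA each, per the labels' protocols. The authors deposited intensity values made with Agilent Feature Extraction, version 10.1.1.1, as the submitters' processing notes and the headers state. Per the file headers, they are background-subtracted within an array and not normalized between arrays. Other columns of the deposited files are flags for control, outlier, saturated and well-above-background spots. The deposited series table equalled the processed intensity at 100% of 43379 spots, on a linear scale without centring.

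From each log2 intensity the 75th percentile of its array was subtracted. Control and outlier spots were left out and spots of a probe averaged. Probes well above background on at least 4 of 8 arrays were kept (27693 of 41012), no spot was saturated, and a gene was its brightest probe. Accessions were matched without version to a RefSeq table of assembly GRCr8, which named 16336 probes. The array was designed on another build.

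The group comparison used limma 3.58.1 (R 4.3.3), 2-sided, with Benjamini-Hochberg adjustment over all 24193 genes and a threshold of 0.05. The fit was tested on simulated data. Fold changes are Eucommia minus Control. The number of arrays limits the precision. Where a probe was not well above background on any array of a group, a fold is a bound: the brighter group's mean against, on every array, whichever is higher of the lowest signal well above background and the probe's own. The members and lists were chosen with earlier results of these data known. Named were all members, up to 6 genes past the threshold and up to 3 of the brightest others of each list, and the 3 genes most like Cyp1a2 and Tiparp over 8 arrays. 1 gene that this rule names is not reported here. Genes like Cyp1a1, and Cyp1a1 minus Cyp1a2, were not computed, since Cyp1a1 was not well above background on any array. Replicate numbers did not pair the samples. A slide block could not be fitted. Other settings tried were median centring, quantile normalization, normexp (offset 50) followed by quantile normalization, the percentile of probes detected on every array, the series table, other filters, the mean over probes, each probe on its own, trended robust variance, the replicate block and each array left out. The series table equals the processed intensity, so in every tally of settings it repeats the main fit and is no separate check. For a gene with a single kept probe, the probe settings leave the fold change unchanged.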

Additional observations from a re-analysis of the deposited data

Results flagged for a closer look

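In 4 of 60 groups of 4 arrays checked, 1 array stood far from the other 3, measured as its gap to the nearest divided by the whole range. Chance gives about 5% of groups. On the second Cyp1a2 probe, Control replicate 2 read 2.61 against 3.52 to 3.69 on the other Control arrays, a ratio of 0.840. For Nqo1, Eucommia replicate 4 read -2.83 against -1.68 to -1.64, a ratio of 0.970. For Hsp90aa1, Eucommia replicate 4 read 6.0 against 6.74 to 6.79, a ratio of 0.948. For Lgr5, Eucommia replicate 3 read -3.23 against -2.28 to -2.23, a ratio of 0.951.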

How the results depend on the processing

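Of the 5 AhR genes tested 0 were called. The count was 1 (Tiparp) with quantile normalization, median centring, normexp followed by quantile normalization, or trended robust variance. With no filter it was 2 (Tiparp, and Cyp1b1 at limma adjusted p = 0.0317). Cyp1b1 was well above background on 1 Control array and on no Eucommia array. The count was 0 in every fit without 1 array. With the replicate block, Tiparp had adjusted p = 0.142, and 1 responsive gene, Gsta2, was called lower. Same-numbered arrays correlated at -0.10 to -0.03, and the block gave 4053 genes higher and 950 lower, against 4504 and 1481. No Eucommia array correlated best with the Control array of its own number. Without 1 Eucommia array 2455 to 2598 genes were higher and 758 to 1132 lower, of 21991 to 22050 genes tested. Detection on all 8 arrays left 2263 higher. Median centring moved the median of all genes to -0.23, and the share of calls that were higher was 32.7%, against 75.3% (59.2% with quantile normalization, 59.9% with normexp followed by quantile normalization, 42.7% with no filter, where 7032 genes were lower). It called lower 4 chaperones and partners, 6 responsive, 7 ligand, 4 electron donor or heme and 1 pericentral gene, and 2 responsive genes higher. Quantile normalization and trended robust variance called 1 responsive gene lower, and trended robust variance also 1 partner and 1 ligand gene. Normexp with quantile normalization called 2 electron donor or heme genes higher and 2 lower. No filter called 1 ligand gene higher, and the mean over probes 1 partner higher (Crebbp) and 1 lower (Hsp90ab1). Detection on all 8 arrays left 0 pericentral calls, as Lgr5 was not tested there. Without 1 array, responsive genes called higher ranged from 1 to 4, and responsive, partner and ligand genes called lower, electron donor or heme genes called higher and pericentral genes called higher each from 0 to 1. Lgr5 was not tested in fits without a Eucommia array, where the filter still asked for 4 arrays. It passed in the 4 fits without a Control array. The pericentral gene called without Eucommia replicate 1 was Gstm3.

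Median centring turned the sign of Cyp1a2 (-0.14), Aldh3a1 (-0.068), Kynu (-0.23), Alas1 (-0.065) and Oat (-0.18). Quantile normalization turned Cyp2e1 (0.025), and normexp with quantile normalization Cyp2e1 (0.023), Pck1 (0.019), Aox1 (0.041) and Gstm1 (0.017). Without 1 array, ranges that cross 0 were -0.29 to 0.077 for Arnt, -0.067 to 0.32 for Cyp1a2, -0.22 to 0.023 for Cyp2e1, -0.018 to 0.066 for Kynu, -0.060 to 0.21 for Oat and -0.13 to 0.055 for Gstm1. The cause was not tested. Detection limits differ between the slides, which bounds what can be said of Ahr, Cyp1a1 and Cyp1b1.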

Other observations

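The genes whose pattern over 8 arrays was most like that of Tiparp, with group means subtracted, were Lrp12 (Pearson correlation 0.961), Hamp, the iron hormone hepcidin (0.959), and Lynx1 (0.959). None of these passed the test: the limma log2 fold changes were 0.02 (adjusted p = 0.916), 0.71 (adjusted p = 0.305) and -0.04 (adjusted p = 0.838).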
